A study of Homo sapiens with 6 samples.

Results

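Alpha- and beta-tubulin join as heterodimers that polymerise into microtubules, the filaments of the mitotic spindle and of intracellular transport. Each subunit is encoded by several genes, called isotypes, whose proteins are very alike along most of their length and differ chiefly in an acidic tail at the carboxyl end, where modifying enzymes and many microtubule-associated proteins act. Cells also control tubulin through its mRNA: when free tubulin is in excess, TTC5 recognises the first amino acids of a tubulin emerging from the ribosome, and the mRNA being translated is degraded with the help of SCAPER and the CCR4-NOT deadenylase.

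The tubulin genes described here are the 4 alpha isotypes TUBA1A, TUBA1B, TUBA1C and TUBA4A and the 6 beta isotypes TUBB, TUBB2A, TUBB2B, TUBB3, TUBB4B and TUBB6. They were taken by gene symbol, and these 10 genes are among 24960 rows of the count table. The study sequenced RNA of K562, a human chronic myeloid leukaemia cell line with erythroid features, in a control group and in a group given hyperoside (2 mM), a plant flavonol glycoside. Each group held 3 libraries of the same line, and no further agent or genetic change is named for either. The treatment time before RNA extraction and the vehicle of the control cells are not given in the sources used here.

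Total counts ran from 35613283 to 36754725 per library. TMM factors, which correct for differences in library composition, ran from 0.957 to 1.004 in control and from 1.01 to 1.03 in hyperoside libraries. Control replicate 1 stood farther from the other control libraries than these did from each other, with chi-square values per degree of freedom of 20.6 and 23.4 against 6.36. No pair of replicates agreed within sampling noise. All 9 erythroid markers of the line were detected, among them HBE1 at 3339 to 5437 FPKM (fragments per kilobase of gene length, scaled to library size) and GATA1 at 88.0 to 106 FPKM. Of 12 markers of other cell types, 8 lay under 1 FPKM in every library and PDGFRA was at 0, while KRT19, EPCAM and CD3D lay above 34 FPKM.

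The coding ends of beta isotypes are shown because they encode the variable tails. They are the last 60 coding bases, stop codon included, of the GENCODE 29 transcripts on GRCh38, read on the coding strand. Capitals mark bases that differ from TUBB after global alignment.
TUBB: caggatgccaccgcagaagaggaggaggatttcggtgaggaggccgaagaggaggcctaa
TUBB2A: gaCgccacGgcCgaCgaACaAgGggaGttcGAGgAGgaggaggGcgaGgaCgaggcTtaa
TUBB3: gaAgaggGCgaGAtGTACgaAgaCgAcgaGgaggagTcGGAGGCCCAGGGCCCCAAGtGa
TUBB4B: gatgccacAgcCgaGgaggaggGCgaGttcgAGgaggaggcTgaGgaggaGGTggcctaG
TUBB6: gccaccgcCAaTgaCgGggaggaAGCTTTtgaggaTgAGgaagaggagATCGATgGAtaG

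These ends lie in coding exons at chr6:30724338-30724397 for TUBB, chr6:3153863-3153922 for TUBB2A, chr16:89935745-89935804 for TUBB3, chr9:137243497-137243556 for TUBB4B and chr18:12326071-12326130 for TUBB6. Against TUBB, 14 bases differed in TUBB4B, 18 in TUBB2A, 19 in TUBB2B, 23 in TUBB6 and 34 in TUBB3. The end of TUBB2B, not shown, is nearly that of TUBB2A, and the ends of TUBA1A and TUBA1B do not differ. Reads from these ends alone tell such genes apart poorly or not at all.

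The first 12 coding bases encode the residues that TTC5 reads. They were ATGCGTGAGTGC in TUBA1A, TUBA1B and TUBA1C and ATGCGTGAATGC in TUBA4A. TUBB and TUBB4B began with ATGAGGGAAATC, TUBB3 and TUBB6 with ATGAGGGAGATC, TUBB2A with ATGCGCGAGATC and TUBB2B with ATGCGTGAGATC.

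Over whole coding sequences the TUBA1 genes were 95.9 to 97.2% identical to each other, and TUBA4A was 84.4 to 85.7% identical to them. TUBB2A and TUBB2B were 98.1% identical, whereas the other beta pairs were 80.9 to 87.7% identical. The share of 100-base windows of each transcript that also occurs exactly in another gene's transcript, on either strand, was 71.1% for TUBA1B, 29.6% for TUBA1C, 26.6% for TUBA1A and 27.4% for TUBA4A. It was 89.0% for TUBB3, 56.4% for TUBB2A, 46.2% for TUBB2B, 20.4% for TUBB, 4.5% for TUBB4B and 0.0% for TUBB6. Counting only windows shared with another of the 10 isotypes, it was 32.1% for TUBA1B, 26.6% for TUBA1A, 11.5% for TUBA1C and 0.0% for TUBA4A. Among beta genes it was then 54.4% for TUBB2A, 42.4% for TUBB2B, 5.1% for TUBB3, 2.9% for TUBB4B and 0.0% for TUBB and TUBB6. Of the shared windows, 999 of 1086 in TUBA1B and 440 of 524 in TUBB also lie in a gene on the opposite strand. Neither of these opposite-strand genes has a row under its GENCODE name in the count table. The same holds for the readthrough gene that overlaps TUBB3 on the same strand. Windows shared only with such genes mark no split between rows of that table. The counting of reads with several matches and the use of strand are not given in the sources used here. The split between TUBA1A, TUBA1B and TUBA1C and that between TUBB2A and TUBB2B are therefore uncertain. How reads from the overlap of TUBB3 with the readthrough gene were counted is not known.

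Within each subfamily the isotypes had the same order of expression in both groups. TUBA1B and TUBB dominated their subfamilies, and no range of FPKM over the 3 libraries of a group overlapped with that of its neighbour within a subfamily. TUBA1B (chr12:49127782-49131397, minus strand) stood at 945, 865 and 837 FPKM in control replicates 1 to 3 and at 831, 916 and 887 FPKM in hyperoside replicates 1 to 3. TUBB (chr6:30720201-30725426, plus strand), the major beta isotype, stood at 883, 803 and 803 FPKM in control and at 833, 912 and 873 FPKM in hyperoside libraries. Both groups overlapped for either gene, and both genes ranked between 72 and 84 among all rows by FPKM.

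The second place was held by TUBA1C (chr12:49188736-49274603, plus strand) among the alpha and by TUBB4B (chr9:137241213-137243707, plus strand) among the beta genes. TUBA1C measured 216, 197 and 185 FPKM in control and 165, 177 and 170 FPKM in hyperoside libraries, with every hyperoside library below every control library. TUBB4B, a broadly expressed beta isotype, measured 189, 178 and 166 FPKM in control and 170, 192 and 183 FPKM in hyperoside libraries, with overlapping groups.

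TUBA1A (chr12:49184796-49189324, minus strand), the alpha isotype prominent in neurons, measured 31.6, 35.1 and 37.8 FPKM in control and 33.7, 29.7 and 39.5 FPKM in hyperoside libraries, and the groups overlapped. TUBA4A (chr2:219249711-219278170, minus strand), whose coding sequence departs most from the other alpha genes, measured 27.1, 25.3 and 26.2 FPKM in control and 19.98, 19.4 and 23.1 FPKM in hyperoside libraries. All 3 hyperoside values of TUBA4A lay below the control values.

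Among the lower beta isotypes, TUBB6 (chr18:12307669-12344320, plus strand) measured 41.6, 36.1 and 38.4 FPKM in control and 43.8, 46.1 and 44.7 FPKM in hyperoside libraries. Its FPKM groups did not overlap and the hyperoside libraries were higher, but its TMM-normalized counts overlapped. TUBB2A (chr6:3153669-3157526, minus strand) measured 33.7, 31.7 and 33.3 FPKM in control and 27.95, 29.6 and 31.8 FPKM in hyperoside libraries. The FPKM groups of TUBB2A overlapped by the lowest control and the highest hyperoside library, whereas its TMM-normalized counts did not overlap.

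The neighbouring gene TUBB2B (chr6:3224261-3231730, minus strand) measured 12.03, 10.9 and 10.2 FPKM in control and 10.7, 8.23 and 11.8 FPKM in hyperoside libraries. TUBB3 (chr16:89921392-89938761, plus strand), the beta isotype known as a neuronal marker, was the lowest of all, at 5.05, 4.33 and 3.10 FPKM in control and 4.13, 3.21 and 4.22 FPKM in hyperoside libraries. Both genes overlapped between groups, and TUBB3 had the widest spread among control libraries, with a coefficient of variation of 23.6% on 224 to 376 counts.

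**Figure D1:**
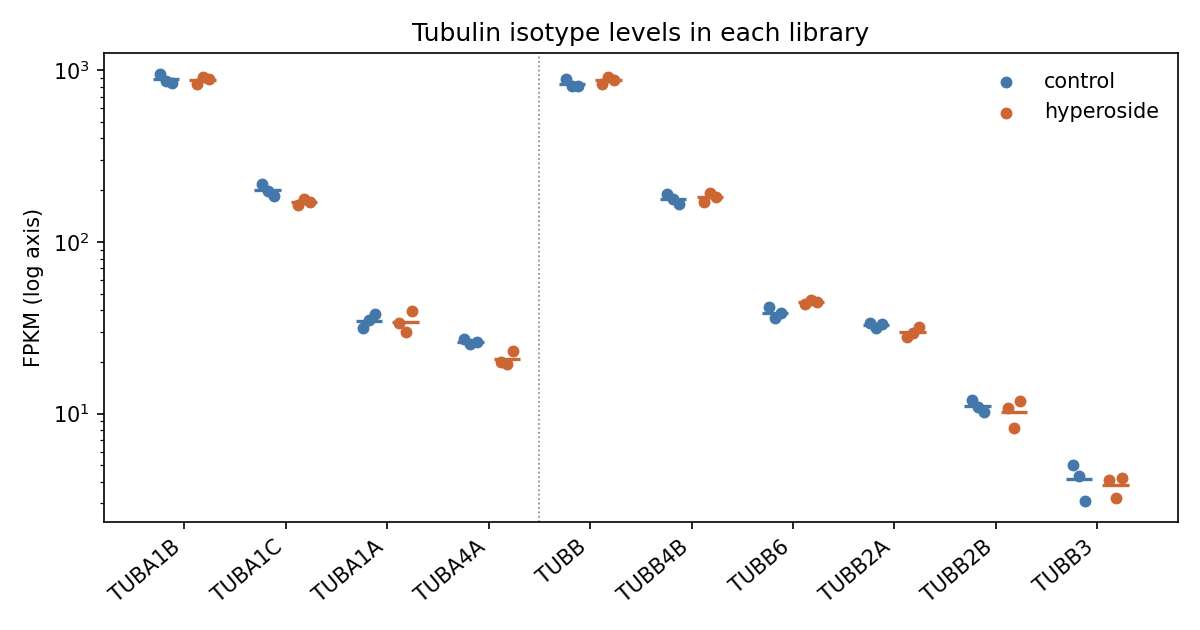
FPKM (log axis) of the 4 alpha and 6 beta isotypes in each of the 6 libraries, with a short line at each group mean. TUBA1B and TUBB lie between 803 and 945 FPKM in every library, TUBB3 lies lowest at 3.10 to 5.05 FPKM, and the order of the isotypes within each subfamily is the same in both groups.

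Tested against the spread between libraries, 2 of the 10 isotypes, TUBA1C and TUBA4A, were lower with hyperoside and 0 were higher (edgeR quasi-likelihood test, Benjamini-Hochberg adjusted p under 0.05 over 15095 tested genes). The background in the whole table was 23.2% of tested genes for lower and 22.1% for higher calls, or 45.3% in either direction, against 2 of the 10 isotypes. None of the 10 passed an additional fold threshold of 2, which 6.43% of all genes passed upward and 3.76% downward. In this bulk RNA, fewer cells with a transcript and less of it per cell cannot be told apart.

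TUBA1C fell by 0.28 on the log2 scale (SE 0.08, 95% interval -0.44 to -0.12, adjusted p = 0.00611), to 82.5% of control. TUBA4A fell by 0.38 (SE 0.09, 95% interval -0.57 to -0.19, adjusted p = 0.00194), to 76.8% of control. Both remained past the threshold in all 12 alternative settings, with adjusted p of 7.34e-04 to 0.0476 for TUBA1C and 2e-04 to 0.019 for TUBA4A. Of the windows that TUBA1C shares with other genes, 539 also lie in an antisense transcript of the same locus, 284 in TUBA1B and 127 in TUBA1A. The antisense gene has no row under its GENCODE name in the count table. TUBA1A overlaps TUBA1C on the opposite strand, and the part of TUBA1A reads in the TUBA1C count was not tested. STK16, on the opposite strand, shares 528 of the 566 windows that TUBA4A shares with other genes, and STK16 itself had a log2 fold change of -0.21 (SE 0.11, adjusted p = 0.109).

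Neither major isotype passed the test. TUBA1B had a log2 fold change of -0.058 (SE 0.07, 95% interval -0.21 to 0.10, adjusted p = 0.544) and TUBB of 0.022 (SE 0.07, 95% interval -0.12 to 0.17, adjusted p = 0.817). TUBB4B had -0.018 (95% interval -0.18 to 0.14, adjusted p = 0.865) and TUBA1A -0.069 (95% interval -0.27 to 0.14, adjusted p = 0.590). The sign of TUBB4B, TUBB, TUBA1A, TUBA1B and, among the lower isotypes, TUBB3 turned in at least 1 alternative setting, so no direction is given for them.

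Beyond these, TUBB2A had a log2 fold change of -0.19 (SE 0.09, 95% interval -0.37 to -0.01, unadjusted p = 0.0356, adjusted p = 0.0727) and passed the threshold in 0 of 12 alternatives. TUBB6 had the largest positive value, 0.16 (SE 0.08, 95% interval -0.0017 to 0.32, adjusted p = 0.0992). It passed the threshold without control replicate 1 (log2 fold change 0.24, adjusted p = 0.00328) and in limma's test on log2(FPKM + 1) and log2(FPKM + 0.1) values (adjusted p = 0.0238 and 0.0232). AFG3L2, which overlaps TUBB6 on the opposite strand, was higher by 0.39 (SE 0.07, adjusted p = 1.35e-04), and the TUBB6 transcript used here shared no 100-base window with it. The part of AFG3L2 reads in the TUBB6 count was not tested.

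TUBB2B and TUBB3 were the least precise. TUBB2B had a log2 fold change of -0.16 (SE 0.13, 95% interval -0.43 to 0.12, adjusted p = 0.346) and TUBB3 of -0.17 (SE 0.18, 95% interval -0.55 to 0.22, adjusted p = 0.491). PSMG4, which overlaps TUBB2B on the opposite strand, was lower by 0.55 (SE 0.10, adjusted p = 2.51e-04). The TUBB2B transcript used here shared no 100-base window with PSMG4, and the part of PSMG4 reads in the TUBB2B count was not tested.

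Across the 10 isotypes the median log2 fold change was -0.11, against 0.0032 over all tested genes, and 8 of the 10 values lay below 0, as did 7513 of the 15095 over all genes. The sign of 5 of the 10 turned in some alternative setting, so the count below 0 is not stable. The TMM-normalized counts of 3 isotypes, TUBA1C, TUBA4A and TUBB2A, did not overlap between groups, which held for 54.4% of all genes. The median ran from -0.20 without hyperoside replicate 3 to -0.024 without control replicate 1.

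**Figure D2:**
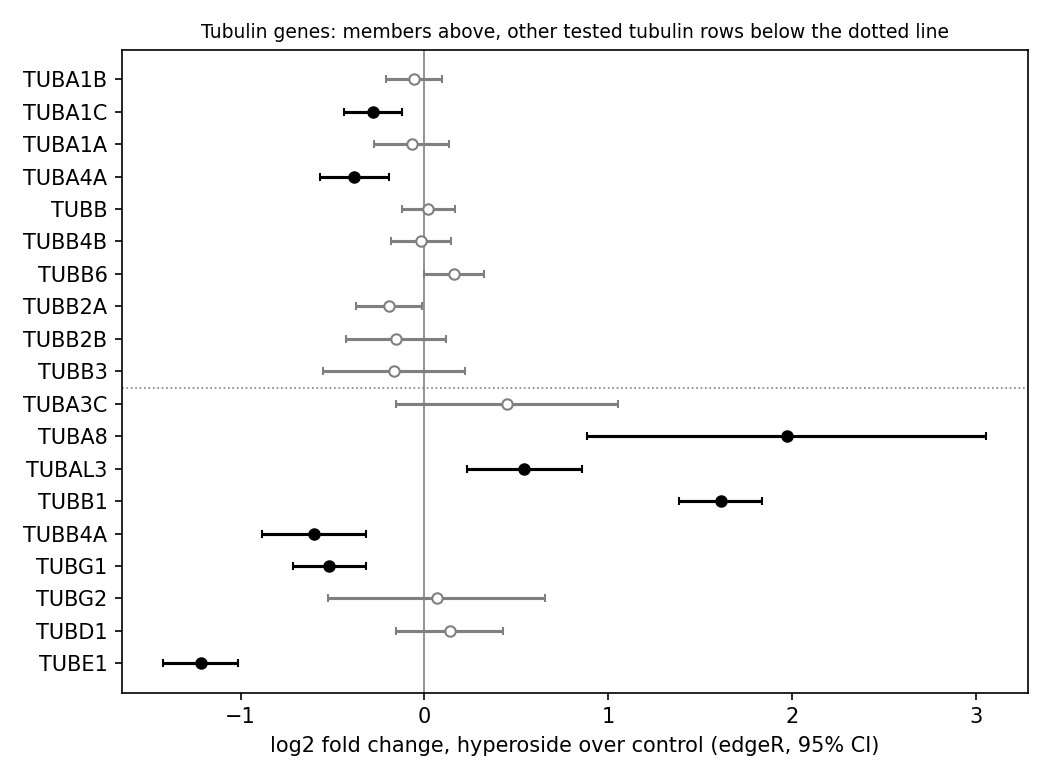
Log2 fold change of hyperoside over control (edgeR, points) with 95% intervals (lines) for the 10 isotypes and for the other tested tubulin genes; filled points have an adjusted p under 0.05. Among the 10 isotypes, TUBA1C and TUBA4A are filled, both to the left of 0, while TUBB1 lies at 1.61 and TUBE1 at -1.22.

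The makeup of each subfamily was described by the share of an isotype in the summed FPKM of its subfamily, which does not depend on library size. Shares within a subfamily add up to 100%, so they are not independent. With 3 libraries against 3, the two-sided exact permutation test cannot give p below 0.1, and after adjustment over the 10 shares the lowest value was 0.2. No share could therefore pass a threshold of 0.05, and the shares are given by their values and overlap. A lack of overlap says little by itself, as 54.4% of all tested genes did not overlap between groups in TMM-normalized counts.

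Among alpha genes, the share of TUBA1B was higher, and those of TUBA1C and TUBA4A lower, in every hyperoside library than in any control library. TUBA1B made up 77.5, 77.1 and 77.1% of alpha FPKM in control and 79.2, 80.2 and 79.2% in hyperoside libraries, a difference of 2.35 percentage points (exact permutation p = 0.1, n = 3 a group). TUBA1C made up 17.7, 17.6 and 17.1% in control and 15.7, 15.5 and 15.2% in hyperoside libraries, a difference of -1.99 percentage points (exact permutation p = 0.1, n = 3 a group). The groups did not overlap for either gene.

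The share of TUBA4A also did not overlap, at 2.22, 2.25 and 2.41% in control and 1.90, 1.69 and 2.07% in hyperoside libraries. TUBA1A held 3.07 ± 0.449% (SD, n = 3) in control and 3.11 ± 0.469% in hyperoside libraries, with overlapping values. As ratios of FPKM, TUBA1C to TUBA1B went from 0.226 ± 0.00397 to 0.194 ± 0.00366 and TUBA4A to TUBA1B from 0.0297 ± 0.00136 to 0.0237 ± 0.00249 (SD, n = 3 a group). When counts took the place of FPKM, TUBA1B held 64.0% in control and 67.3% in hyperoside, and TUBA1C 29.3 and 26.5%, TUBA1C having the longer gene model.

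Among beta genes, the shares that did not overlap between groups were those of the minor isotypes TUBB6 and TUBB2A. TUBB6 made up 3.57, 3.40 and 3.64% of beta FPKM in control and 4.01, 3.87 and 3.89% in hyperoside libraries, without overlap (difference 0.39 percentage points, exact permutation p = 0.1, n = 3 a group). TUBB2A made up 2.90, 2.98 and 3.16% in control and 2.56, 2.49 and 2.77% in hyperoside libraries, also without overlap (difference -0.41 percentage points, exact permutation p = 0.1, n = 3 a group).

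The dominant beta isotype TUBB held 75.8 ± 0.334% in control and 76.3 ± 0.313% in hyperoside, with overlapping values. TUBB4B held 16.2 ± 0.467 and 15.9 ± 0.237%, TUBB2B 1.01 ± 0.034 and 0.902 ± 0.184%, and TUBB3 0.378 ± 0.0741 and 0.339 ± 0.060% (SD, n = 3 a group), all overlapping. Of the near-identical pair, TUBB2B made up 25.1 ± 1.46% of the summed TUBB2A and TUBB2B FPKM in control and 25.5 ± 3.32% in hyperoside libraries.

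**Figure D3:**
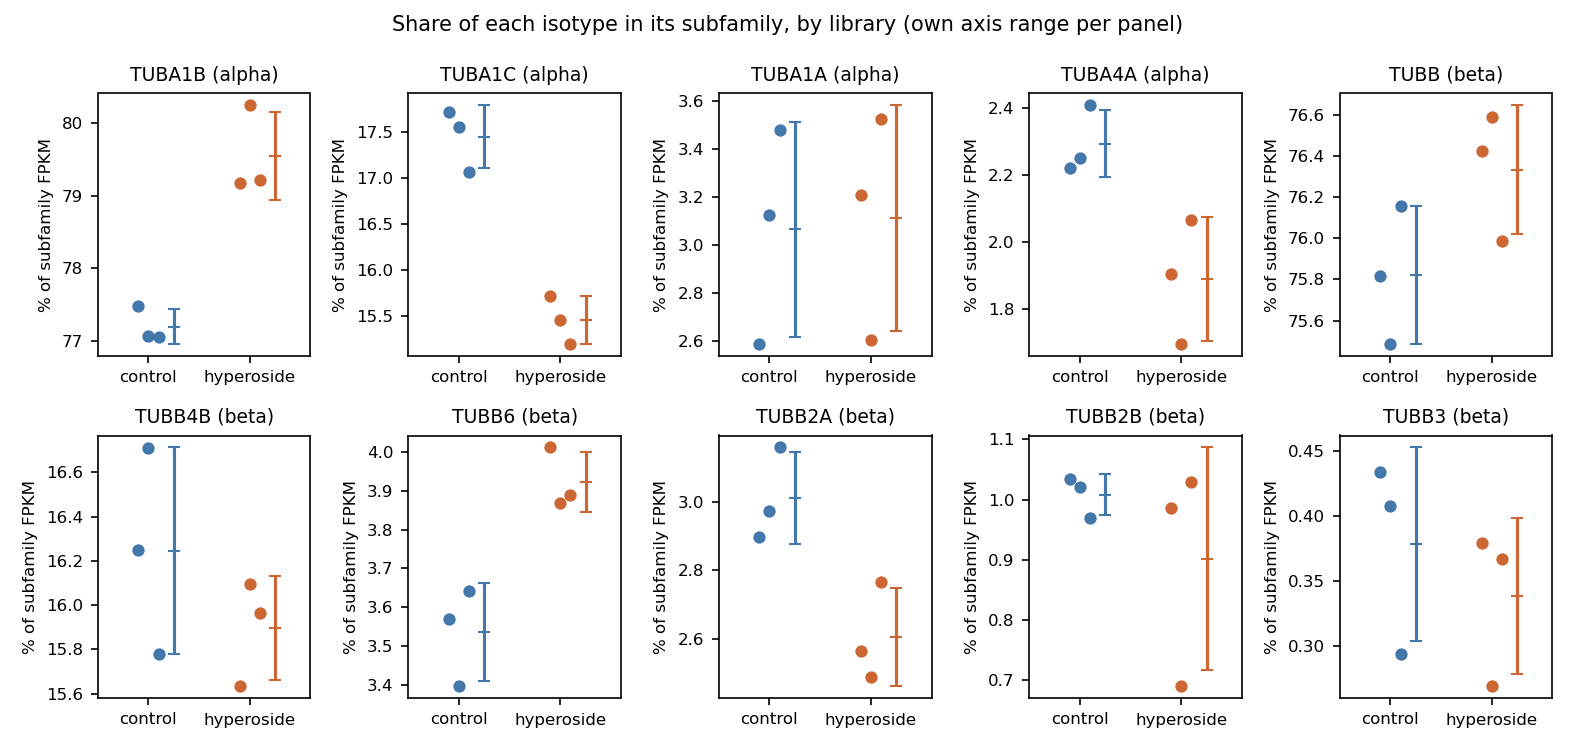
Share of each isotype in the summed FPKM of its subfamily (%), in a panel for each gene, with 1 point for each library and a bar for the group mean ± SD (n = 3); each panel has its own axis range. Points of the groups are apart for TUBA1B and TUBB6, higher with hyperoside, and for TUBA1C, TUBA4A and TUBB2A, lower with hyperoside.

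The ratio of alpha to beta separated the groups, while the sums of the subfamilies did not. The ratio was not tested. Separation alone says little with 3 libraries a group, as 54.4% of all tested genes separated the groups in TMM-normalized counts. Alpha FPKM summed to 1220, 1123 and 1086 in control and to 1049, 1142 and 1120 in hyperoside libraries. Beta FPKM summed to 1164, 1064 and 1055 in control and to 1090.5, 1191 and 1148 in hyperoside libraries. Both sums overlapped between groups, but the ratio of alpha to beta was 1.05, 1.06 and 1.03 in control and 0.962, 0.959 and 0.976 in hyperoside libraries, without overlap. Its mean went from 1.04 ± 0.0133 to 0.966 ± 0.00885 (SD, n = 3 a group), and hyperoside over control was 0.925. TUBA1B and TUBB together held 76.5 ± 0.199% of the FPKM of the 10 genes in control and 77.9 ± 0.417% in hyperoside libraries (SD, n = 3 a group), and the groups did not overlap. The 10 genes together took 0.511 ± 0.0294% of counts in control and 0.514 ± 0.0218% in hyperoside libraries.

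The table held 14 further tubulin rows, of which 9 passed the filter on low counts, and 3 of these were higher and 3 lower. That is 33.3% each way, where 22.1% of all tested genes were higher and 23.2% lower. TUBB1, the beta isotype of platelets and megakaryocytes, measured 2.16, 2.42 and 2.40 FPKM in control and 7.16, 7.79 and 7.14 FPKM in hyperoside libraries. It rose by 1.61 on the log2 scale (SE 0.11, adjusted p = 3.16e-09), to 3.06 times the control level, and its share of all beta rows went from 0.212 ± 0.0238 to 0.638 ± 0.0193% of FPKM. TUBB1 thus remained a small part of beta-tubulin mRNA in both groups.

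Of 9 megakaryocyte markers, TUBB1 among them, 3 passed the filter. ITGB3, the beta subunit of the platelet fibrinogen receptor, was higher by 1.57 (SE 0.16, adjusted p = 3.05e-07), and ITGA2B, its alpha subunit, was lower by 0.36 (adjusted p = 0.0196). The call for ITGA2B was lost without control replicate 1 or 2 or hyperoside replicate 1 or 2. It was also lost with limma on log2(FPKM + 1) and log2(FPKM + 0.1) values (adjusted p = 0.0753 and 0.0679). The defining marker GP1BA was at 0 counts in all 6 libraries, and PPBP and VWF had at most 5. The summed level of the list, TUBB1 included, was 8.66 to 10.2 FPKM in control and 14.8 to 15.4 FPKM in hyperoside libraries. TUBB1 alone had a mean of 2.33 FPKM in control and 7.36 FPKM in hyperoside libraries, so the sum is no separate measure beside it. The part of the other markers in the TUBB1 values was not tested.

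Of 9 erythroid markers, 2 were higher and 4 lower, or 22.2 and 44.4% against 22.1 and 23.2% of all tested genes. The other 3, HBZ, GATA1 and TAL1, were not called. The list summed to 7654 to 9497 FPKM in control and 5536 to 6697 in hyperoside libraries. HBG2, a fetal globin chain, was lower by 0.80 (adjusted p = 2.34e-06) and KLF1, an erythroid transcription factor, was higher by 0.96 (adjusted p = 2.64e-06). The markers of other cell types summed to 235 to 252 FPKM in control and 309 to 325 FPKM in hyperoside libraries, mostly through KRT19, which was higher by 0.46 (adjusted p = 5.83e-05). The part of these shifts in the isotype values was not tested.

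TUBE1, epsilon-tubulin of centrioles, measured 14.4, 14.9 and 14.98 FPKM in control and 6.51, 7.03 and 6.17 FPKM in hyperoside libraries and was lower by 1.22 (SE 0.10, adjusted p = 2.59e-08). TUBG1, the main gamma-tubulin that nucleates microtubules, was lower by 0.52 (SE 0.09, adjusted p = 0.000226), and TUBB4A by 0.60 (SE 0.13, adjusted p = 0.00141). TUBA8 was higher by 1.97 (SE 0.52, adjusted p = 0.00464) on only 8 to 62 counts a library, and TUBAL3 was higher by 0.54 (SE 0.15, adjusted p = 0.00648).

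Over 6 lists of genes that fold, modify, nucleate, bind or sever tubulin polymers or degrade tubulin mRNA, 7 of 102 tested genes were higher and 42 were lower, where 22.1% and 23.2% of all tested genes were so called. The counts of each list below stand against these same shares. Their median on the log2 scale was -0.13, beside -0.11 for the 10 isotypes.

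Tubulin folding needs the prefoldin and CCT chaperonin complexes and then the tubulin cofactors. Of 21 such genes, 9 were lower and 2 higher, with a median of -0.15. PFDN2 and VBP1, prefoldin subunits, were lower by 0.70 (adjusted p = 2.1e-06) and 0.36 (adjusted p = 6.64e-04), and the chaperonin subunit CCT4 was lower by 0.28 (adjusted p = 0.00212). TBCE, a cofactor that acts on alpha-tubulin, was higher, at 7.499, 7.26 and 8.05 FPKM in control and 12.3, 12.2 and 12.2 FPKM in hyperoside libraries (log2 fold change 0.64, adjusted p = 4.91e-06). The count of 9 lower folding genes was 3 without hyperoside replicate 1, 4 without hyperoside replicate 3 and 5 without control replicate 1, and the count of 2 higher genes was 1 without any of the hyperoside replicates.

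In the degradation of tubulin mRNA, 4 of 12 genes were lower and 0 higher, with a median of -0.05 (all 12 by the same edgeR test). TTC5, the factor that reads the start of nascent tubulin, measured 3.96, 4.77 and 4.93 FPKM in control and 4.43, 3.74 and 3.87 FPKM in hyperoside libraries. Its groups overlapped, with a log2 fold change of -0.23 (SE 0.11, 95% interval -0.46 to 0.0019, adjusted p = 0.0985), which passed the threshold without control replicate 1 (adjusted p = 0.022). CNOT8, a catalytic deadenylase subunit, was lower by 0.57 (adjusted p = 7.04e-06), and CNOT9 by 0.34 (adjusted p = 0.00441). The other two lower genes were CNOT6 and the adaptor SCAPER, whose calls were lost without hyperoside replicate 3 and with limma at both pseudocounts. The SCAPER call was also lost without control replicate 2 or 3 or hyperoside replicate 1 or 2, with DESeq2 (adjusted p = 0.056), without the filter on low counts (adjusted p = 0.0517) and with the replicate number as a block (adjusted p = 0.0631). The count of lower genes was 2 without hyperoside replicate 3, and the count of higher genes was 1 without control replicate 2 or 3 and with limma at both pseudocounts.

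Among enzymes that modify tubulin, 1 of 17 tested genes was higher and 2 were lower, or 5.88 and 11.8% against 22.1 and 23.2% of all tested genes, with a median of 0.06. ATAT1, the enzyme that acetylates alpha-tubulin, was lower by 0.77 (adjusted p = 0.00419), and HDAC6, which removes that acetyl group, was lower by 0.54 (adjusted p = 2.55e-05). TTLL11, a polyglutamylase, was higher by 0.62 (adjusted p = 0.0485), a call lost without control replicate 2 or hyperoside replicate 1 or 3, with DESeq2 (adjusted p = 0.0655) and with limma at both pseudocounts (adjusted p = 0.107 and 0.116). The count of higher genes in this list was 2 without hyperoside replicate 2.

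The gamma-tubulin ring complex and the augmin complex that nucleate microtubules had 10 of 20 genes lower and 1 higher, with a median of -0.28. HAUS8, an augmin subunit, was lower by 0.84 (adjusted p = 1.58e-05), and TUBGCP3, a core subunit of the ring, by 0.55 (adjusted p = 1.86e-04). CDK5RAP2, which activates the ring complex, was higher by 0.21 (adjusted p = 0.0224), a call lost without control replicate 2 or 3 or hyperoside replicate 1 or 2 and with the replicate number as a block (adjusted p = 0.0663). The count of higher genes in this list was 2 without control replicate 1.

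Among proteins that bind microtubules, 14 of 25 tested genes were lower and 3 higher, with a median of -0.27. MAPT, which encodes tau, was lower by 1.55 (SE 0.26, adjusted p = 8.66e-05), and MAPRE3, a plus-end binding protein, by 0.55 (adjusted p = 2.63e-05). MAPT was expressed at a low level, with mean FPKM of 0.65 in control and 0.23 in hyperoside libraries. The genes higher were MAP7, a cofactor of kinesin-1, by 0.66 (adjusted p = 1.08e-05), and the plus-end proteins CLIP1 and CLASP2, by 0.45 and 0.35. MAPT and CAMSAP3, which binds minus ends, also passed the fold threshold of 2; CAMSAP3 is named here after its values were seen.

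Among 7 tested genes of microtubule severing, 3 were lower and 0 were higher by the same edgeR test, and the count of higher genes was 1 without control replicate 2 or 3 or without the filter on low counts. KATNA1, the catalytic subunit of katanin, was lower by 0.61 (adjusted p = 8.33e-06), and KATNBL1 by 0.61 (adjusted p = 5.61e-04). 

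**Figure D4:**
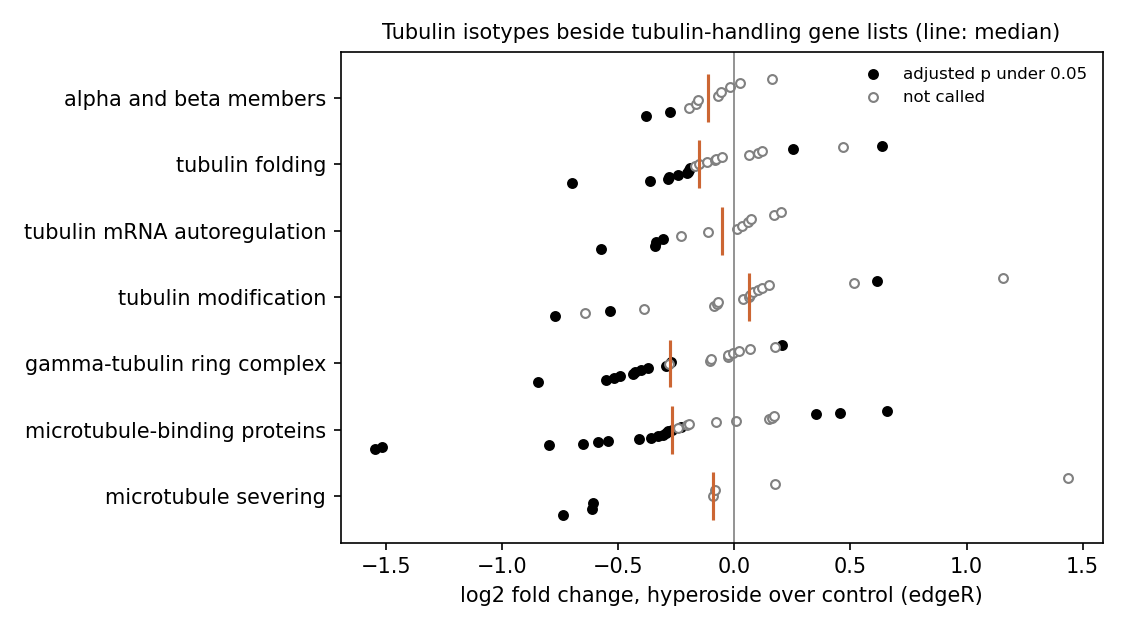
Log2 fold change of hyperoside over control (edgeR) for each tested gene of the 10 isotypes and of 6 lists of tubulin-handling genes, with a line at each median; filled points have an adjusted p under 0.05. Medians lie at -0.11 for the isotypes, -0.28 for the gamma-tubulin ring complex and -0.27 for microtubule-binding proteins, and MAPT and CAMSAP3 lie farthest to the left.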

How the data were processed

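The 6 libraries, 3 control and 3 hyperoside, hold RNA-seq of K562 cells. Group and replicate number were taken from the sample titles and the dose from the study's text. The authors deposited raw counts per gene and FPKM values, that is, counts scaled to gene length and library size. The submitters' processing notes name fastp, HISAT2, HTSeq and hg38; versions, the use of strand and the handling of reads with several matches are not given in the sources used here. In the present processing, counts were kept by edgeR's filterByExpr (minimum count 10, minimum total 15), TMM-normalized and compared by the quasi-likelihood test (edgeR 4.0.16, R 4.3.3, condition only) with Benjamini-Hochberg adjustment over 15095 genes; a call is an adjusted p under 0.05. A standard error (SE) is the log2 fold change divided by the square root of F. Shares were computed from FPKM within the 4 alpha or 6 beta members and compared by two-sided exact permutation tests (scipy 1.17.1). Alternatives used DESeq2 1.42.0 and limma 3.58.1 as well. Coding sequences came from GENCODE 29 on GRCh38 and were aligned globally with Biopython 1.88. The members and gene lists were chosen with earlier results of these data known. Named genes are all members, TTC5, TUBB1 and, for each list, up to 4 called genes a direction, taken by lowest adjusted p; examples of these are given. Steps were tested on simulated counts. The replicate numbers did not pair the libraries (correlations of same-numbered deviations from the group means -0.081, -0.033 and -0.034). Whether replicates came from separate cultures is not given in the sources used here, so p-values measure the spread between these libraries, which may be technical. Other annotation columns were not used here. Some genes and sequences are not reported here.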

Additional observations from a re-analysis of the deposited data

How the results depend on the processing

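The 2 lower calls, TUBA1C and TUBA4A, kept their direction and stayed past the threshold in every setting run (DESeq2, its size factors, no filter on low counts, limma on log2(FPKM + 1) and log2(FPKM + 0.1), a fit blocked on replicate, and the leaving out of single libraries). The count of higher isotypes was 1, TUBB6, with limma at both pseudocounts and 0 to 1 with a library left out. The median log2 fold change of the isotypes ran from -0.20 to -0.024 with a library left out. The ratio of alpha to beta, hyperoside over control, was 0.903 with counts in place of FPKM and 0.918 to 0.930 with a library left out. TUBB4B turned to 0.033 under both limma settings, which used FPKM values without TMM factors. With a library left out, log2 fold changes ran from -0.18 to 0.024 for TUBA1A, -0.11 to 0.018 for TUBA1B, -0.018 to 0.093 for TUBB, -0.35 to 0.023 for TUBB3 and -0.081 to 0.052 for TUBB4B, and the TUBA1A share difference ran from -0.19 to 0.30 percentage points. The cause of these moves was not tested. A fit with the replicate number as a block gave 0 higher and 2 lower isotypes, 3026 higher and 3103 lower genes against 3333 and 3508 without it, 3 lower folding genes against 9 and 0 higher genes of the gamma-tubulin ring complex against 1; the libraries share only a number. Limma at both pseudocounts gave 4 lower folding genes and 2 lower genes of mRNA degradation. With 3 libraries a group, the shares cannot pass a test at 0.05, and TUBB3, at 224 to 376 counts, is the least precise isotype.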
